A study of Amphimedon queenslandica with 124 samples.

Results

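The report concerns 100 gene models of the demosponge Amphimedon queenslandica that were high in the middle of brooding, low in the swimming larva and at settlement, and high again once the body of the young sponge was forming. They were taken from 36868 gene models by their stage means. Counts scaled to an equal total per library (CPM) were put on the scale log2(CPM + 1) and averaged within each stage. The mean of cloud, spot, late spot and ring gave a brooding level, and the mean of chamber-formation, tent-pole-formation and juvenile gave a post-settlement level. The 2 levels had to lie within 1 of each other. The lower of them is called here the high level of a gene model, and the highest of its means at cleavage, free-swimming and settlement is called its low level. The difference is the margin. A total of 1677 gene models met the rule with a margin above 0, and the 100 with the largest margin were kept. They are referred to below by their rank in margin.

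The mother broods her embryos in chambers within her body. Their stage names follow the pigment cells, which spread as a cloud, gather as a spot at the posterior pole and then open into a ring. The larva leaves the mother and swims with a ciliated outer layer until it settles and flattens into a mat. It then rebuilds its body, with choanocyte chambers that drive and filter water, and the tent-pole stage and the juvenile with a working aquiferous system follow.

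The libraries are CEL-seq libraries of 124 single individuals from Heron Island, staged by morphology. CEL-seq counts the 3' ends of polyadenylated RNA from barcoded samples. No genotype, treatment or age was given for any group, and how much of each adult was sampled was not given. A stage was labelled for 123 individuals. Cleavage and brown had 7 individuals each, as had the pigment stages cloud, spot, late spot, ring and, last of the embryo stages, late ring. Free-swimming larvae numbered 13, and settlement 10. Mat-formation had 34, chamber-formation 3 and tent-pole-formation 6, with 5 juveniles and 3 adults to follow. Individuals are numbered 1 to 124 in the labels, and from settlement on the libraries numbered 101 to 124 were deeper than the others. They held 548828 to 2195894 counts each, against 1158 to 300386 in the libraries of the same stages numbered 1 to 100. Unless another set is named, values from settlement on come from numbers 101 to 124, as the rule asks. Nothing in the labels says whether individuals of a stage came from different mothers, so p-values measure the spread between the individuals sampled.

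The identifiers carry no gene names, and none of the 25955 genes in the reference table could be matched to them. The functions of the 100 gene models are therefore not described, and they could not be sorted by pathway or set against cell type markers. Because each library pools the RNA of the cells sampled from 1 individual, fewer cells of a type and less RNA per cell cannot be told apart in any value below.

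The margins ran from 0.68 to 3.52 with a median of 0.96, on the log2(CPM + 1) scale, and 45 of the 100 were 1 or more. Gene models at the end of the list were close to those left out. The member of rank 100 had a brooding level of 8.36, a post-settlement level of 8.04 and a low level of 7.35, and thus a margin of 0.683. The next gene model had 4.19, 4.61 and 3.52, and a margin of 0.671. The brooding levels of the 100 spanned 0.95 to 10.7 with a median of 4.55, so that the list mixes scarce and abundant transcripts. With a mean of at least 5 CPM over the libraries of 100000 counts or more, 87 members counted among the 8846 expressed gene models that serve as the background for levels.

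**Figure D1:**
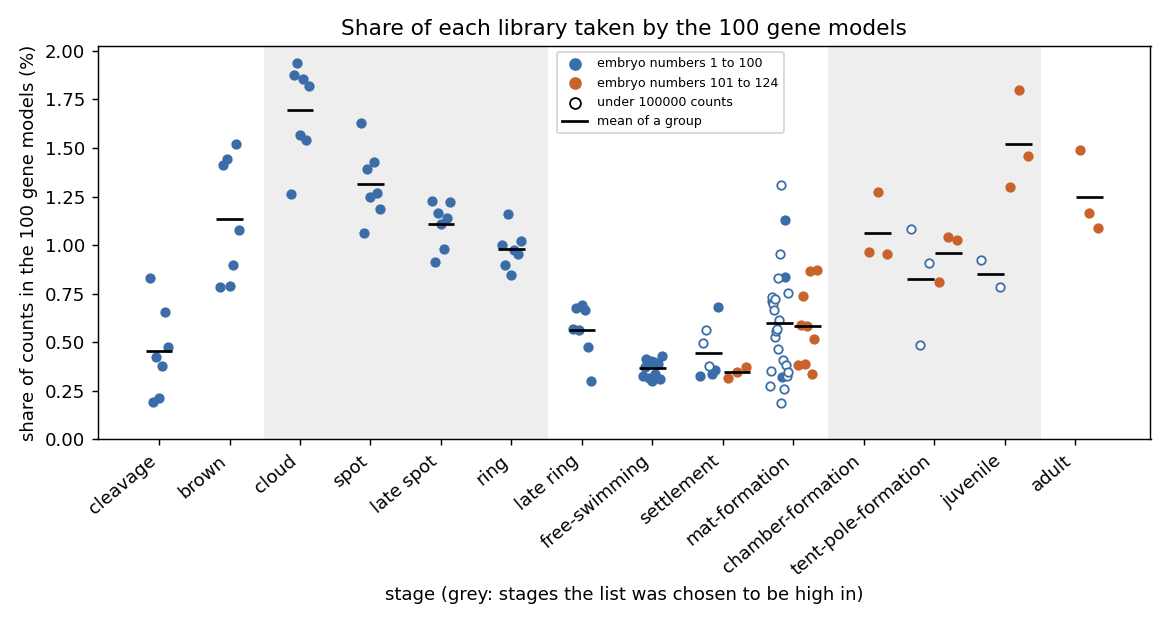
Share of each library's counts (%) in the 100 gene models, 1 point per individual, by stage. Grey bands mark the stages in which the list was chosen to be high, open points are libraries under 100000 counts, and bars are group means: the share was 1.69% at cloud, 0.37% in free-swimming larvae and 1.52% in the juveniles numbered 101 to 124.

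Together the 100 gene models took a mean of 1.69% ± 0.24 of the counts at cloud (SD, n = 7), the highest mean share of any stage. The share was 1.32% ± 0.18 at spot, 1.11% ± 0.12 at late spot and 0.98% ± 0.10 at ring (n = 7 each). In free-swimming larvae it was 0.37% ± 0.04 (n = 13), and at settlement 0.34% ± 0.03 (n = 3). It was 1.06% ± 0.18 at chamber-formation, 0.96% ± 0.13 at tent-pole-formation and 1.52% ± 0.25 in juveniles (n = 3 each). These are the stages that chose the list, so the values describe it and carry no test. The plot of shares by library shows that no cloud to ring library fell to the level of the free-swimming larvae.

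Within the brooding stages the members fell off unevenly. Their highest brooding mean was at cloud for 59 members and at spot for 30, and their lowest was at ring for 60. The level at ring was below that at cloud by at least 1 on the log2(CPM + 1) scale for 54 of the 100, against 23.0% of the expressed gene models, and above it by at least 1 for 3, against 5.39%. For 27 members the ring mean was at or below their own low level, although the average over the brooding stages was above it. A total of 67 members were above their low level at each of the brooding stages and 97 at each of the post-settlement stages. On the way from chamber-formation to juvenile, 21 members were higher by at least 1 and 5 were lower by at least 1, against 10.3% and 7.04% of the expressed gene models. The median difference between juvenile and chamber-formation was 0.02. The rule used all of these stages, so the counts describe the list, and nothing is read from their distance to the expressed gene models.

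The stage that set the low level was settlement for 41 members, cleavage for 37 and free-swimming for 22. Single individuals separated less cleanly than the means. All 9 chamber-formation, tent-pole-formation and juvenile libraries were above the 3 settlement libraries for 43 members, against 4.89% of the gene models with a count. All 28 cloud to ring libraries were above the 7 cleavage libraries for 4 members, against 1.32%. They were above the 13 free-swimming libraries for 2 members, against 0.642%. The rule used each of these contrasts, so nothing is read from the counts.

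**Figure D2:**
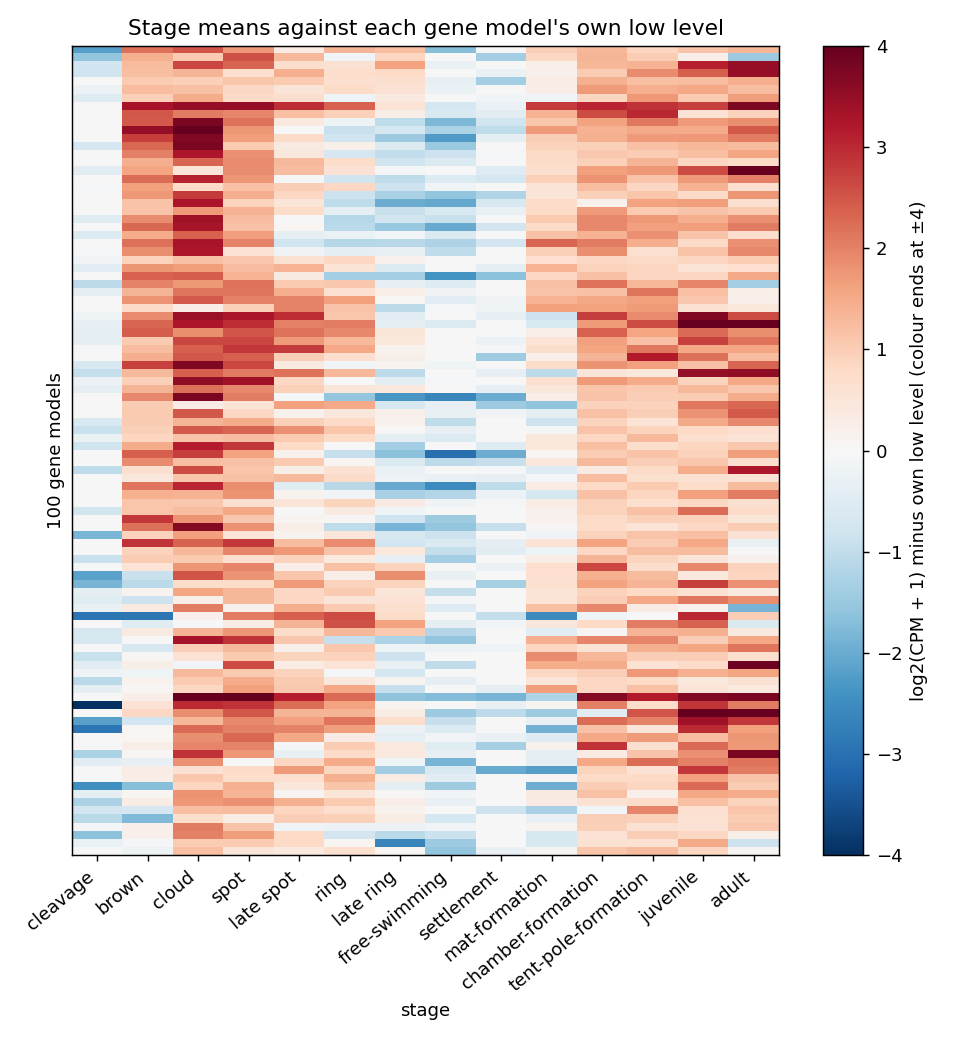
Stage mean of each of the 100 gene models minus its own low level, on the log2(CPM + 1) scale, 1 row per gene model and 1 column per stage (from settlement on, libraries 101 to 124). Rows are grouped by whether brown, late ring, mat-formation and adult, which the rule did not use, lay nearer the high or the low level: 64 rows were nearer the high level at brown and 16 at late ring.

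The member with the largest margin, Aqu2.1.36424_001, had its low values at or near 0 CPM. At cloud its level was 298, 341, 138, 172, 246, 465 and 109 CPM in the 7 embryos, and at spot it ran from 72.0 to 298 CPM. At late spot 6 embryos had 37.4 to 90.0 CPM and 1 had no count, and at ring the values ran from 2.29 to 83.3 CPM. In late ring embryos 1 of 7 had any count, at 2.36 CPM, and in free-swimming larvae 1 of 13, at 2.25 CPM. The 3 settlement libraries had no count, and the 9 mat-formation libraries had 0 to 2.1 CPM. It was then at 81.1, 51.9 and 21.9 CPM at chamber-formation, 26.1, 30.8 and 39.9 CPM at tent-pole-formation, 78.5, 37.3 and 32.5 CPM in juveniles and 38.8, 155 and 18.4 CPM in adults. None of the 12 individuals numbered 101 to 124 from chamber-formation to adult overlapped with those at settlement and mat-formation, a contrast that the rule used in part. The shallow libraries numbered 1 to 100 did not show this order. There the gene model had 4 counts in 3 of 7 settlement libraries and 18 counts in 5 of 25 mat-formation libraries, at up to 185 CPM. It had no count in the 5 tent-pole-formation and juvenile libraries, where 0 of 133899 counts allows a level of up to 22.4 CPM.

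At brown, before cloud, Aqu2.1.36424_001 was at 0 to 28.8 CPM, with 6 of 7 embryos under 20 CPM and a median of 1.84. Every cloud embryo was above every brown embryo.

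The member of rank 2, Aqu2.1.25125_001, had lower and flatter values. Its mean was 28.4 CPM ± 17.4 at cloud, 27.4 ± 11.6 at spot, 21.9 ± 16.4 at late spot and 12.3 ± 6.93 at ring (SD, n = 7 each). It was already at 26.1 CPM ± 16.6 at brown. At late ring the mean was 3.68 CPM ± 3.84 (n = 7) and in free-swimming larvae 0.85 ± 1.78 (n = 13). At cleavage 5 of 7 embryos had no count, 1 had 5.51 CPM and 1 had 49.2 CPM. Settlement libraries had 0, 3.13 and 0.68 CPM. In the libraries numbered 1 to 100 the order was another, with 14 counts in 4 of 7 settlement libraries (35.4 CPM ± 48.3) and none in the 5 tent-pole-formation and juvenile libraries. Unlike the member of rank 1, it was present in all 9 mat-formation libraries, at 3.37 to 52.2 CPM. Adults had 35.0, 10.4 and 66.2 CPM, which overlaps with mat-formation (edgeR log2 fold change 0.95, SE 0.59, adjusted p = 0.226).

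Among the next members the balance between the brooding and the later rise differed. They were chosen after their values were seen, by their rank, and their stage means are given as a description. Rank 4 was at 15.1 to 29.3 CPM from cloud to ring and at 217 CPM in juveniles. Rank 8 was at 23.9 to 45.6 CPM from cloud to ring, at 4.64 CPM at chamber-formation and at 317 CPM in juveniles. Rank 12 was uneven within brooding, with 141 CPM at cloud, 146 at spot, 43.1 at late spot and 8.73 at ring. From chamber-formation to juvenile it was at 26.0 to 52.3 CPM. Rank 6, an abundant member, was at 301 to 738 CPM from cloud to ring and at 149 to 655 CPM from chamber-formation to juvenile, and at 98.3 and 73.2 CPM in free-swimming larvae and at settlement. Rank 57 had the most counts of all members. It was at 593 CPM at cloud, 3084 at ring, 914 at late ring, 85.3 at mat-formation and 4097 in juveniles.

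**Figure D3:**
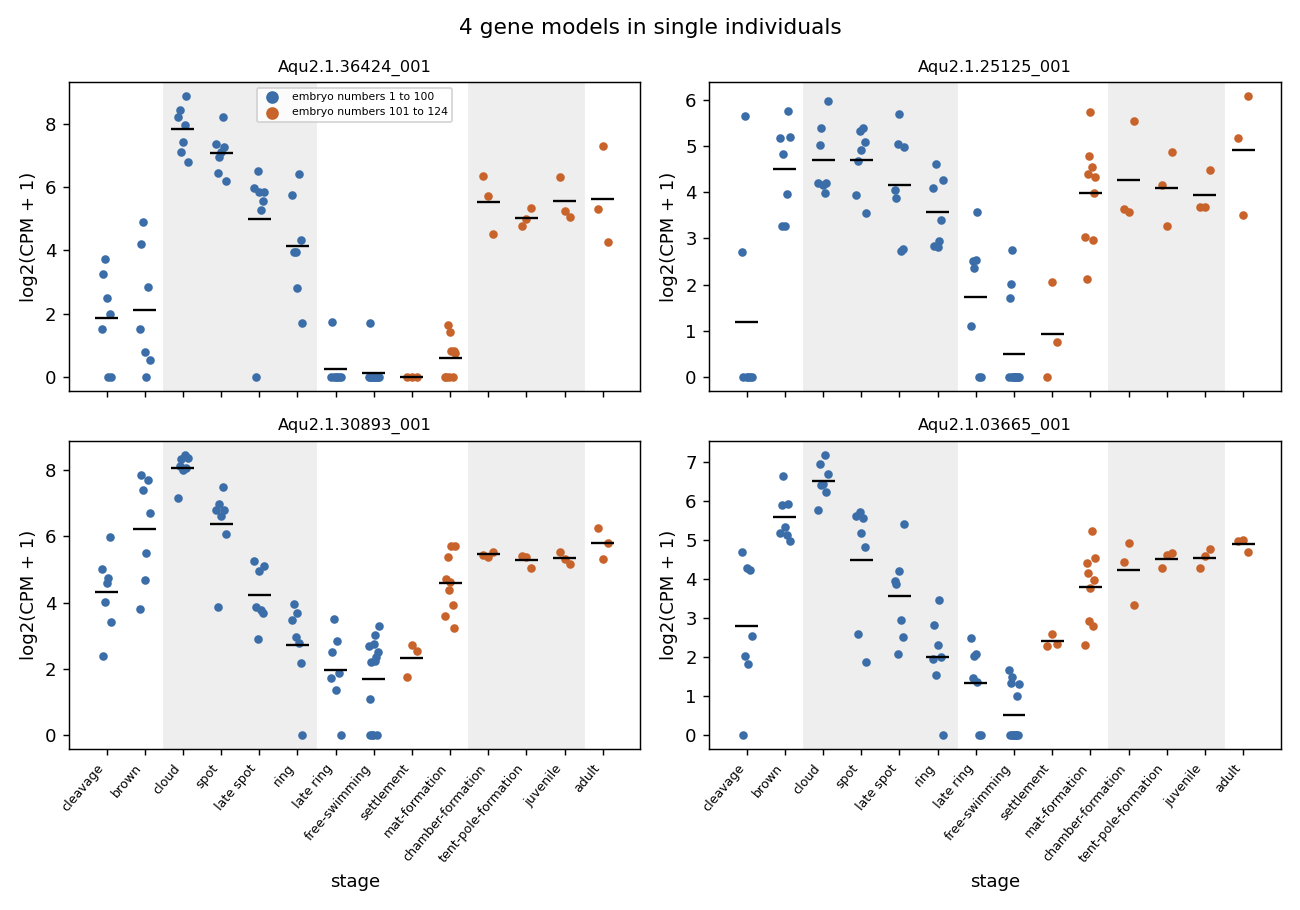
Level of 4 gene models in single individuals on the log2(CPM + 1) scale, by stage (from settlement on, libraries 101 to 124). Bars are stage means and grey bands the stages in which the list was chosen to be high. Aqu2.1.36424_001 had no count at settlement. At brown it had counts in 6 of 7 individuals, and Aqu2.1.25125_001 and the lower pair had counts in all 7.

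The stages brown, late ring, mat-formation and adult had no part in the choice, and the members' own high and low levels give a scale to place them on. At brown, the stage before cloud, 49 members were at or above their high level, 37 were between and 14 were at or below their low level. At late ring the order was the reverse, with 5 at or above the high level, 39 between and 56 at or below the low level. At mat-formation 13 were at or above the high level, 59 between and 28 at or below the low level. In adults 60 were at or above the high level and 7 at or below the low level.

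The commonest course over these 4 stages, taking each as nearer the high or the low level, was high at brown, low at late ring, low at mat-formation and high in adults, which 28 members showed. Another 22 were also nearer their high level at mat-formation, and 17 were nearer the high level in adults only. In brown and late ring together, 57 members were nearer the high level at brown and the low level at late ring, 27 were nearer the low level at both, 9 at brown only and 7 at neither. For mat-formation and adult, 51 members were nearer the low level and then the high level, 34 were nearer the high level at both and 15 were nearer the low level in adults. The heat map of stage means shows these courses row by row. With high and low levels this close, a stage mean can change sides through the spread between individuals, so the courses are a description.

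These levels depend on how libraries are scaled. TMM scaling factors, which correct for a few abundant transcripts, averaged -0.94 on the log2 scale at ring, -0.89 at late ring and -0.59 at cloud, against -0.14 at mat-formation and -0.08 at chamber-formation. TMM scaling thus raised the median of all expressed gene models from 3.52 to 4.37 at ring and from 3.47 to 4.27 at late ring, and from 4.55 to 4.69 at mat-formation. With TMM scaling 17 members were at or above their high level at late ring and 46 at or below their low level. All 100 members kept a margin above 0 with TMM scaling. Of them, 82 still met the whole rule, which also asks for brooding and post-settlement levels within 1 of each other.

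**Figure D4:**
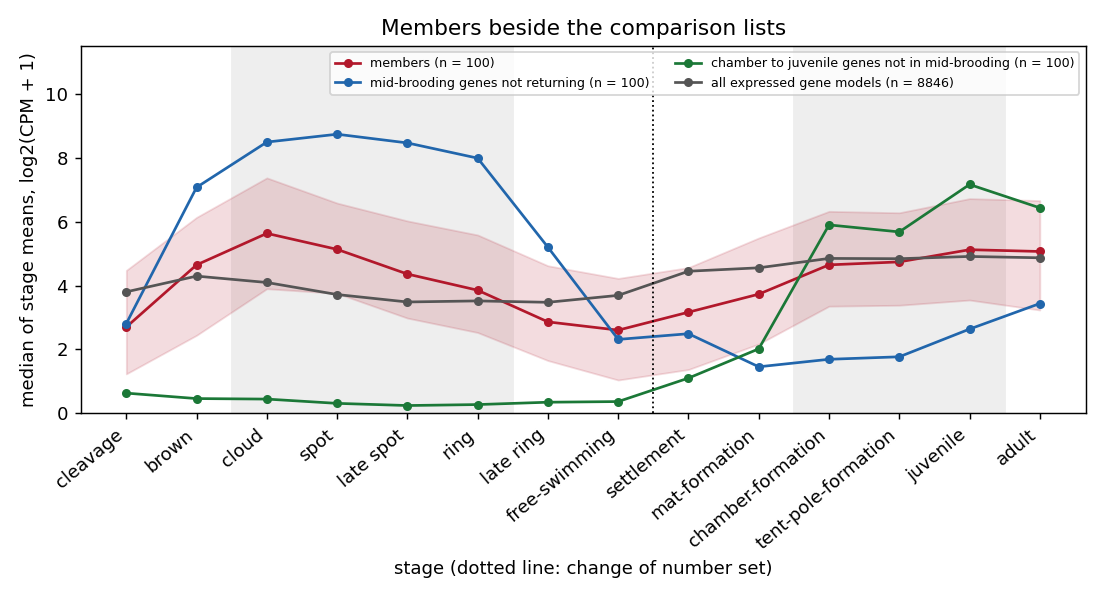
Median over gene models of the stage means, log2(CPM + 1), for the 100 members (shaded: their middle 50%), for 2 comparison lists of 100 chosen on the same stages, and for 8846 expressed gene models. At late ring the members' median was 2.86, near its value of 2.60 in free-swimming larvae, whereas that of the mid-brooding list that does not return was 5.20.

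For comparison, 100 gene models were taken that were highest in mid-brooding over the same low stages and did not return, and 100 that were highest from chamber-formation to juvenile and were not high in mid-brooding. Their margins were larger, at 3.02 to 8.30 and 3.96 to 6.48. At brown the median stage mean was 4.65 for the members, 7.07 for the list that does not return and 0.46 for the later list, against 4.29 for all expressed gene models. At late ring the medians were 2.86, 5.20 and 0.35, against 3.47. Mat-formation gave 3.73, 1.45 and 2.02, against 4.55, and the adult medians were 5.07, 3.44 and 6.43, against 4.87. The members' median at mat-formation was thus between their medians of 3.16 at settlement and 4.65 at chamber-formation. Single mat-formation individuals differed widely, with a share of counts in the 100 gene models of 0.335% to 0.872%. This range reached from within that of the 3 settlement libraries (0.317% to 0.370%) to just under that of the 3 at chamber-formation (0.952% to 1.27%). The median of the later list was 2.02 at mat-formation and 5.90 at chamber-formation. These medians are a description, and the lists differ in level and margin.

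The end of brooding was tested in late ring against brown embryos, 7 against 7, with edgeR's quasi-likelihood test over 5546 gene models and Benjamini-Hochberg adjustment. Of the members 60 passed the filter on low counts. At an adjusted p under 0.05, 24 of them fell and 4 rose, and 32 were not called. Of all gene models tested, 22.9% fell and 22.8% rose. The median log2 fold change was -0.72 over the members tested and -0.12 over all gene models tested. The 24 members that fell did so by 1.41 to 4.04 on the log2 scale, with a median of -2.64. Without the filter on low counts 30 of the 100 members fell and 8 rose, against 5.87% and 7.09% of 23868 gene models, so that the count of rises was near the background. The median log2 fold change was then -0.75 over the members and -0.40 over all gene models. A gene model can pass the filter through 1 of the 2 stages alone. Brown adjoins cloud and late ring lies between ring and free-swimming, stages that the rule used, so the direction is not independent of the choice.

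The largest fall was that of Aqu2.1.30893_001, of rank 41. The 7 brown embryos had 12.9, 228, 167, 24.5, 44.7, 207 and 103 CPM. The late ring embryos had 2.32, 4.72, 10.3, 1.60, 6.24, 2.66 and 0 CPM, all below the lowest brown embryo. The log2 fold change was -4.04 with an SE of 0.70 (edgeR, adjusted p = 2.23e-04). The fall began before late ring, since the mean was 277 CPM ± 69.6 at cloud, 100.0 ± 50.7 at spot, 20.9 ± 12.4 at late spot and 7.53 ± 5.01 at ring (SD, n = 7 each). From chamber-formation to juvenile its libraries were at 32.4 to 45.6 CPM, and mat-formation libraries were at 8.52 to 51.1 CPM.

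Aqu2.1.03665_001, of rank 26, was at 35.1, 58.8, 98.0, 39.6, 34.1, 59.3 and 30.3 CPM in brown embryos. In late ring embryos it was at 4.65, 1.77, 3.09, 3.20, 1.56, 0 and 0 CPM, again without overlap. Its log2 fold change was -3.92 with an SE of 0.58 (edgeR, adjusted p = 4.48e-05). It too had its highest mean at cloud, at 95.3 CPM ± 30.8, and was at 3.99 ± 3.23 by ring (n = 7 each). Adults had 30.6, 31.1 and 24.8 CPM, within the range of 3.99 to 36.4 CPM at mat-formation.

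Other members that fell were more abundant. Rank 67 was at 467 to 2533 CPM in brown embryos and at 25.9 to 110 CPM in late ring embryos, with a log2 fold change of -3.27 (SE 0.43). Rank 25 was at 115 to 1066 CPM and then at 14.4 to 42.1 CPM, with a log2 fold change of -3.82 (SE 0.46). For both, no late ring embryo reached the lowest brown embryo. Over the 24 members the median of the stage means was 7.69 at cloud, 6.26 at brown, 3.19 at late ring and 4.86 at mat-formation, on the log2(CPM + 1) scale.

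The 4 members that rose were of ranks 57, 42, 92 and 93. Rank 57 went from 97.3 CPM ± 84.5 at brown to 914 ± 407 at late ring (SD, n = 7 each), with all late ring embryos above all brown embryos and a log2 fold change of 3.89 (SE 0.62, edgeR, adjusted p = 8.89e-05). Rank 92 went from 26.1 CPM ± 21.0 to 85.4 ± 26.7 and rank 93 from 51.3 ± 25.8 to 137 ± 84.3, and in both the groups overlapped. Rank 42 was at 0 to 31.9 CPM at brown and 13.0 to 137 CPM at late ring. Its call was lost when late ring replicate 6 was left out (adjusted p = 0.0725). Among the 24 that fell, ranks 3 and 36 lost the call when single libraries were left out, and the other 22 did not.

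Late ring replicate 7 stood apart. The median level of the 100 members in it was 1.39, against 2.93 to 3.80 in the other 6 libraries, on the log2(CPM + 1) scale. It was the lowest library of its stage for 40 members, and for 23.9% of the expressed gene models. Its total of 617279 counts was the lowest of the stage, close to the next at 624652. Without it 8 of 65 members tested rose, against 22.5% of all gene models tested. The placement at late ring then changed from 56 to 48 members at or below their low level. The part of this library in the result beyond these values was not tested. Among brown embryos, replicates 2, 3 and 6 had member medians of 5.12, 5.48 and 5.27, and the other 4 had 4.44 to 4.59. The share of counts in the 100 gene models was 1.41% to 1.52% in the former and 0.79% to 1.08% in the latter.

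**Figure D5:**
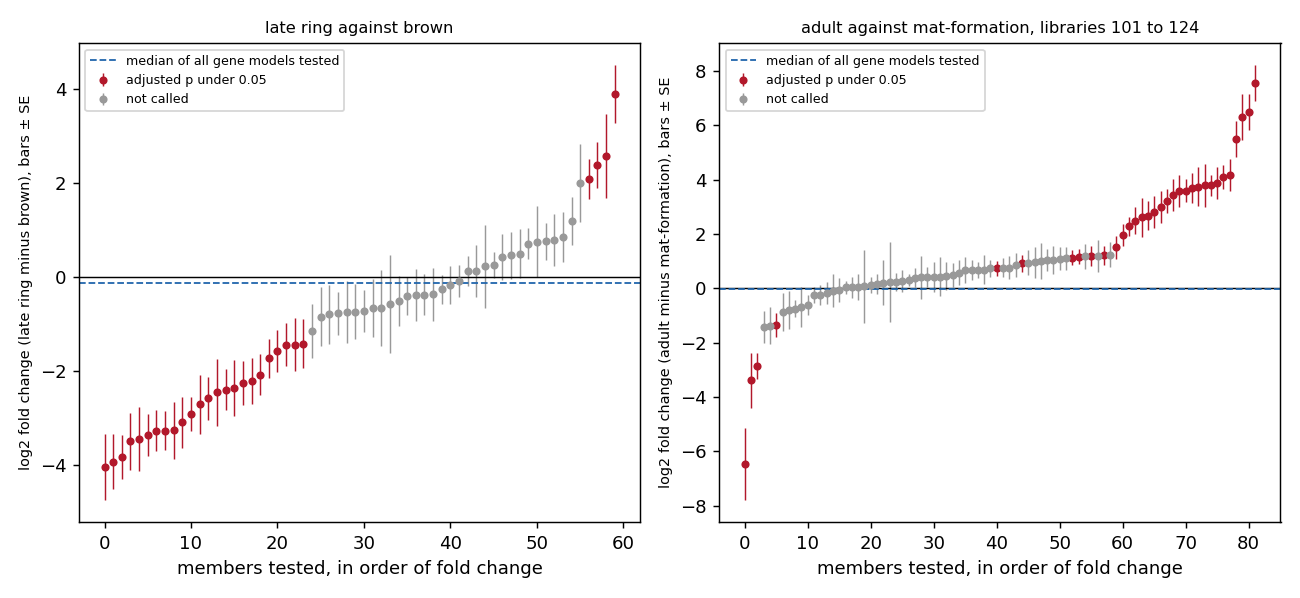
Log2 fold change (bars: SE) of each member tested, in order of size, in late ring against brown (7 against 7, 60 members) and in adult against mat-formation (3 against 9, 82 members). Red points have an adjusted p under 0.05 and dashed lines are the medians of all gene models tested, -0.12 and -0.01. The lowest adult value belongs to rank 83, which had no count in adults, so that its fitted size is no measure of the fold.

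The end of the time-course was tested in 3 adults against 9 individuals at mat-formation, both numbered 101 to 124, over 9211 gene models. Of the members 82 were tested, of which 29 rose and 4 fell by the same test and threshold. Of all gene models tested 20.0% rose and 13.8% fell. The median log2 fold change was 0.75 over the members tested and -0.01 over all gene models tested. The 29 members that rose did so by 0.73 to 7.56 on the log2 scale, with a median of 3.21. Without the filter on low counts 31 of the 100 members rose and 4 fell, against 10.7% and 4.42% of 27859 gene models. The count of falls was thus near the background. Mat-formation follows settlement and adult follows juvenile, stages that the rule used. Here too the direction is not independent of the choice.

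The largest rises were of members nearly absent at mat-formation. Rank 8 was at 0 to 3.87 CPM in the 9 mat-formation libraries and at 85.8 to 763 CPM in the adults, with a log2 fold change of 7.56 (SE 0.66). Aqu2.1.36424_001 followed with a log2 fold change of 6.50 (SE 0.67, edgeR, adjusted p = 5.5e-06), from 0.67 CPM ± 0.78 (n = 9) to 70.9 ± 74.0 (n = 3). Rank 4 rose by 6.31 (SE 0.85) and rank 20 by 5.49 (SE 0.66) on the log2 scale. All of these were higher in 3 of 3 adults than in any mat-formation library. Members this low at mat-formation can pass the filter on low counts through the 3 adults alone. Their fold changes rest on few counts at mat-formation, so their size is uncertain. The adults differed among themselves, so that rank 4 had 12.3, 126 and 266 CPM as its lowest, median and highest value.

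Rank 33 was more even, at 111 to 151 CPM in adults and 2.32 to 21.9 CPM at mat-formation (log2 fold change 4.10, SE 0.44). Rank 68 was at 201 to 341 CPM in adults and 6.29 to 44.7 CPM at mat-formation (3.60, SE 0.43). Rank 57, which rose at late ring, rose here too, from 85.3 CPM ± 27.2 (n = 9) to 1205 ± 867 (n = 3).

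The 4 members that fell were of ranks 83, 64, 18 and 73. Rank 83 had no count in 3978752 counts of the adults and 105 counts at mat-formation. Set against a floor of 3 counts over the 3 adults, it was at least 13.8-fold lower. Rank 18 was at 2.76 to 5.65 CPM in adults and 12.8 to 49.7 CPM at mat-formation, with a log2 fold change of -2.87 (SE 0.48). Ranks 64 and 73 had log2 fold changes of -3.38 and -1.35, and both lost the call when adult replicate 1 or adult replicate 2 was left out. Of the 29 that rose, 23 kept the call with each library left out in turn. Floors and binomial intervals cover counting error only.

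The comparisons of late ring with brown and of adult with mat-formation share no library. Of the 24 members that fell from brown to late ring, 4 were among the 29 that rose in adults and 1 was among the 4 that fell. Of the 4 that rose at late ring, 3 were among the 29 (ranks 57, 92 and 93), and ranks 92 and 93 lost the adult call when a single adult was left out (highest adjusted p = 0.0599 and 0.0692 in edgeR). Of the gene models tested in both comparisons, 135 of the 1228 that rose at late ring (11.0%) and 140 of the 1241 that fell (11.3%) rose in adults. The 4 shared members were 16.7% of the 24 that fell, while 20 of the 60 members tested in both comparisons rose in adults. For falls in both, 1 of the 24 members (4.17%) stood against 202 of the 1241 gene models (16.3%). The 29 that rose in adults had a median stage mean of 3.27 at settlement and 2.99 at mat-formation, then 5.38 at chamber-formation and 6.67 in adults. The 24 that fell at late ring had 3.61, 4.86, 5.42 and 5.64 at the same stages.

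The libraries of settlement, tent-pole-formation and juvenile numbered 1 to 100 were not used by the rule and give a related contrast in other individuals. No chamber-formation library is among them. The share of counts used here weighs abundant members most, unlike the stage means of the rule. Tent-pole-formation and juvenile held 16097 to 38188 counts per library there, so few gene models passed the filter on low counts. In the 5 tent-pole-formation and juvenile libraries, pooled, the 100 members took 0.814% of the counts (1090 of 133899, Wilson 95% binomial interval 0.767% to 0.864%). In the 7 settlement libraries they took 0.455% (4517 of 993407, 0.442% to 0.468%). By library the share was 1.08%, 0.485% and 0.907% at tent-pole-formation and 0.924% and 0.782% in the juveniles. At settlement it was 0.324%, 0.493%, 0.561%, 0.376%, 0.336%, 0.355% and 0.680%. Of the 5 later libraries 4 were above all 7 settlement libraries, and tent-pole-formation replicate 2 was within their range. Without the 5 members with the most counts, the pooled shares were 0.541% and 0.274%.

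In the libraries numbered 101 to 124 the shares were 1.28% at tent-pole-formation and juvenile together and 0.346% at settlement. Of the 59 members with at least 10 counts in these 12 held-out libraries together, 36 (61.0%) were higher at tent-pole-formation and juvenile than at settlement, against 38.5% of the expressed gene models with as many counts. With no minimum of counts, 45 members were higher and 47 lower, and 3141 and 5563 of the expressed gene models. In the libraries that chose the list, 99 of 99 were higher.

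The test of the 5 libraries against the 7 covered 460 gene models, 4 of them members. Of all gene models tested 0.435% rose and 0.435% fell, and 0 members were called by edgeR or DESeq2, with 1 that was higher at an unadjusted p under 0.05 and 0 that were lower. That one was rank 54, at 808 CPM ± 497 (n = 5) against 325 ± 338 (n = 7), with a log2 fold change of 1.48, an SE of 0.70 and an adjusted p of 0.255 in edgeR. The other 96 members did not pass the filter on low counts at this depth. Without the filter, edgeR had 1 of 92 members higher and 7 lower at an unadjusted p under 0.05. Of 22077 gene models 605 were higher and 2021 lower. In a fit of all stages 2 of 98 members were higher and 16 lower, against 183 and 4535 of 19342 gene models. Lower values thus outnumbered higher ones there, among the members as among all gene models. On simulated counts for this comparison, 200 of the 460 gene models were changed. Of these, 8.96% of 2-fold, 49.3% of 4-fold and 81.8% of 8-fold changes were recovered. The real test called 2 rises and 2 falls. With so many changed the adjustment is milder, so these rates are no measure of recovery in the real test.

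At mat-formation the 25 libraries numbered 1 to 100 had a pooled share of 0.696% (8685 of 1248493 counts, 0.681% to 0.710%), between those of settlement and of the later stages, with a range of 0.189% to 1.31% over libraries. Of the 82 members with at least 10 counts, 67 (81.7%) were higher than at settlement, against 61.2% of the expressed gene models. In the edgeR test of mat-formation against settlement, numbered 1 to 100, 0.0% of 692 gene models rose and 2.17% fell. Of the 6 members tested 0 were called, by edgeR or DESeq2, and 0 had an unadjusted p under 0.05.

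At mat-formation the mean share was 0.59% ± 0.20 in the 9 libraries numbered 101 to 124 and 0.60% ± 0.28 in the 25 numbered 1 to 100. Over 968 gene models tested between them, 9.71% were higher and 15.3% lower in the former. Of 9 members tested 0 rose and 2 fell, ranks 66 and 74, with log2 fold changes of -1.71 and -1.98. None of the 9 rose at an unadjusted p under 0.05, or by DESeq2. Both falls turned to differences of up to 0.72 and 0.69 in the other direction under some of the other settings, and neither was then called. The number sets cannot be told apart from depth at this stage.

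Some members lie next to each other in identifier number, in 5 pairs no more than 5 apart. Of the 100 members 10 were within 5 of another member. Of the other expressed gene models 5.55% were within 5 of a member, and of the others that met the rule 4.25%. Whether the pairs are neighbours on a chromosome was not analysed here. Ranks 48 and 44 have consecutive identifiers. Their stage means were 6.03 and 5.63 at brown and 6.35 and 4.93 at cloud, where they moved in opposite directions. Later they had stage means of 3.54 and 2.99 at mat-formation, 6.61 and 5.52 at chamber-formation, 8.58 and 6.72 in juveniles, and 7.81 and 6.92 in adults, on the log2(CPM + 1) scale. Both rose from mat-formation to adult, by 4.16 (SE 0.59) and 3.87 (SE 0.59). If they are near-identical copies, their reads could be split between them, which makes their single values uncertain. Ranks 43 and 67, 2 apart, differed in course. Rank 67 was at 9.91 at brown and 6.11 at late ring, and rank 43 at 1.51 and 3.48.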

How the data were processed

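Per the labels' protocols, single individuals were staged by morphology and stored in RNAlater, RNA was isolated with TRIzol, and CEL-seq libraries with multiplexing barcodes were sequenced. CASAVA 1.8, Bowtie2 2.1.0 and HTSeq 0.5.4p3 are listed in the submitters' processing notes. Their settings, the build, the annotation, strand and molecular identifiers were not given in the sources used here. Raw counts for each gene model in each library, with no normalization, were deposited by the authors. Their table ends within a line, so 36868 complete gene models were used, 33001 with a count. Totals were 1158 to 3059409 counts per library. Settlement is spelled settelment in the labels.

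CPM are counts scaled to an equal total per library. Tests used edgeR 4.0.16 in R 4.3.3 (quasi-likelihood, two-sided, TMM, low counts removed by filterByExpr, minimum 10 and total 15) over all gene models passing, with Benjamini-Hochberg adjusted p under 0.05 as called. SE is the log2 fold change over the square root of the F statistic. DESeq2 1.42.0 was an alternative. Other settings left out the filter, single libraries or libraries under 100000 counts, used DESeq2 size factors, a fit of all 14 stages, and runs of 8 embryo numbers as a block. Summaries used Python 3.11.15, numpy 2.4.6, pandas 2.3.3 and scipy 1.17.1. Simulated counts had 200 gene models changed in every comparison. For late ring against brown (5546 gene models) 92.4% of 8-fold and 2.99% of 2-fold changes were recovered. For adult against mat-formation (9211) the values were 77.3% and 5.97%. A miss of a 2-fold change is therefore likely at these group sizes. The real tests of these 2 comparisons called a larger share than was changed in the simulated counts, so recovery there may differ.

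The members and lists were chosen with earlier results of these data known. Named are the 2 members with the largest margin and the 2 with the lowest log2 fold change in late ring against brown among those called with a mean of at least 50 CPM at brown. Any other member was chosen after its values were seen and is given by rank. Replicate numbers here are in order of embryo number and pair no samples between stages. Numbers 101 to 124 form 3 runs of 8 with 3 mat-formation individuals and 1 of each other late stage. What a run is was not given, so individuals in it were treated as having no order. The planned lists by gene name and cell type markers could not be applied, since 0 identifiers matched.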

Additional observations from a re-analysis of the deposited data

Results flagged for a closer look

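In groups of 4 to 10 individuals, the member median and the 4 named gene models were examined for a single individual far from the rest by Dixon's criterion. Of 45 such groups 10 held such an individual. The criterion's chance rate of about 1 in 20 holds for normally distributed values. Many of the CPM values were 0, where a few counts in 1 individual are enough, so no excess is read from the 10. The member median of late ring replicate 7 was 1.39, against 2.93 to 3.80 in the other 6. Aqu2.1.36424_001 was at 298 CPM in spot replicate 5, against 72.0 to 163 in the others, at 2.36 CPM in late ring replicate 2, where the other 6 had no count, and at 14.9 CPM in settlement replicate 6 (numbers 1 to 100), against 0 to 4.83. Aqu2.1.25125_001 was at 49.2 CPM in cleavage replicate 3, against 0 to 5.51, and at 52.2 CPM in mat-formation replicate 30, against 3.37 to 26.3. Aqu2.1.30893_001 was at 57.4 CPM in settlement replicate 2 (numbers 1 to 100), against 0 to 24.1. Aqu2.1.03665_001 was at 98.0 CPM in brown replicate 3, against 30.3 to 59.3, at 41.7 CPM in late spot replicate 7, against 3.21 to 17.6, and at 12.4 CPM in settlement replicate 5 (numbers 1 to 100), where the others had no count. The settlement libraries numbered 1 to 100 held 17429 to 300386 counts, so that 1 count can be worth several CPM there.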

How the results depend on the processing

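Membership depended most on which libraries and stages entered the rule. Of the 100 members 33 were kept with all libraries from settlement on and 38 with brown, late ring and mat-formation added to the low stages. Stage medians kept 63, TMM scaling 62 and a pseudocount of 10 kept 66. More members still met the rule, whatever their rank in margin. They were 53 with all libraries from settlement on and 41 with the added low stages. Stage medians gave 93, TMM scaling 82 and a pseudocount of 10 gave 100. Leaving out single libraries kept 87 to 100. With TMM scaling 17 members were at or above their high level at late ring, against 5, a setting chosen after seeing the data, as was the placement without late ring replicate 7. In late ring against brown, 4 members rose in the main test and 8 without the filter, against 7.09% of all gene models there. In a fit of all stages 7 rose, against 7.67%. With single libraries left out 4 to 8 rose, and the 8 without late ring replicate 7 stood against 22.5% of all gene models. The fall was called for 22 to 25 members with single libraries left out, against 19.4% to 23.4% of all gene models. It was called for 30 without the filter, against 5.87%, and for 30 in the fit of all stages, against 7.26%. In adult against mat-formation, 1 member fell in a fit of all stages, against 4. Of all gene models 1.58% fell in that fit. With single libraries left out 2 to 4 members fell. There were 2 without adult replicate 1 or 2, against 7.61% and 9.56% of all gene models. With the runs of embryo numbers as a replicate block, 27 rose and 3 fell, against 18.3% and 12.3% of all gene models. The signs of all 61 calls in these 2 comparisons were kept in every setting that tested them.

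In the fit of all stages, tent-pole-formation and juvenile against settlement had 1 rise and 2 falls among 98 members, against 0. Of all gene models 0.300% rose and 6.60% fell there. Mat-formation against settlement had 1 fall, against 0, and 5.67% of all gene models fell. Between the mat-formation sets, 24 rose without the filter (19.0% of all gene models), 26 in the fit of all stages (26.7%) and 1 without libraries under 100000 counts (6.89%), against 0, so that the members were near or below the background. Falls there were 5 of 69 members without those libraries (3.04% of all gene models) and 7 of 98 in the fit of all stages (24.1%), against 2. They were 0 to 5 with single libraries left out, 0 without mat-formation replicate 2, 3 or 14. The cause of these shifts was not tested. Leaving out libraries under 100000 counts was not run for tent-pole-formation and juvenile, where 0 would be left. The low depth from settlement on in numbers 1 to 100 limits all tests there.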

Other observations

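The individual with no stage label, embryo 36, held 23082 counts. It had a count in 38 of the 100 gene models, which took 0.546% of its counts.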
